A study of Rattus norvegicus with 12 samples.

Results

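Endothelial identity and leukocyte adhesion were followed through 10 genes in failing and control rat hearts. The genes were chosen by name, with earlier results of these data known: Vwf, Eng, Emcn, Pecam1, Cdh5, Tek, Tie1, Ets1, Icam1 and Vcam1, and every probe set annotated to 1 of these symbols alone was used. Of the 10 genes, 9 had such a probe set, 1 each, out of 31042 probe sets and 14217 named genes on the array. Cdh5, which encodes VE-cadherin of the endothelial adherens junction, is not analysed here. The study measured messenger RNA in heart tissue on a 1-colour array, with 1 array a heart for 6 failing and 6 control biological replicates; 1 label field speaks of a cell line, where the tissue field gives heart. Its title concerns the spontaneously hypertensive rat, an inbred strain with high blood pressure, as its thickened heart passes into systolic failure. The labels call the groups Failing and Control and name no treatment for either, and they do not state strain, age or sex for the animals of each group; captopril-treated failing groups named in the protocol are not analysed here.

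Endothelial cells line every vessel of the heart and the inside of its chambers, and they differ between arteries, capillaries and veins. Von Willebrand factor, stored in endothelial granules, is richer in veins and larger vessels than in capillaries, whereas endomucin is a surface sialomucin of capillaries and veins. Resting endothelium carries little ICAM-1 and VCAM-1, and inflammatory cytokines raise both through NF-kappaB, so that leukocytes can adhere.

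In these hearts Vwf was 2.14-fold higher in failing than in control hearts and Emcn was lower, at 0.582 of the control level. These were the 2 of 9 members that passed an adjusted p of 0.05 by limma among the brighter probe sets, that is, the 15521 whose mean log2 intensity over all hearts was at least 6.94, the median of all probe sets. In that fit 4.25% of probe sets passed in either direction, 2.76% higher and 1.48% lower. Its filter does not use the groups, and the fit was chosen with earlier results of these data known. Eng and Icam1 lay higher and just missed the threshold, and Ets1 and Tie1 lay lower without passing. At an unadjusted limma p under 0.05 there were 5 members higher and 3 lower, where 13.2% and 12% of the brighter probe sets were higher and lower and 25.1% either. The median difference of the 9 members was 0.51 on the log2 scale, against -0.020 for the 9409 genes with their brightest probe set in this fit. The members were picked with earlier results of these data known, so their standing beside the array is a description and was not tested. Over all 31042 probe sets limma called 0 members and 0 probe sets of any kind (0%; lowest adjusted p = 0.10), while 14.5% had an unadjusted p under 0.05. Leaving out 1 heart at a time ended every member call for 8 of the 12 hearts (failing replicates 3, 4 and 6 and control replicates 1, 2, 3, 5 and 6). Without control replicate 4, a heart that stood apart in its leukocyte genes, 5 of 9 members passed (Vwf, Eng, Pecam1 and Icam1 higher, Emcn lower), when 1035 and 1048 of the brighter probe sets were called higher and lower. The arrays measured bulk tissue, so fewer cells of a type and less RNA per cell cannot be told apart.

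**Figure D1:**
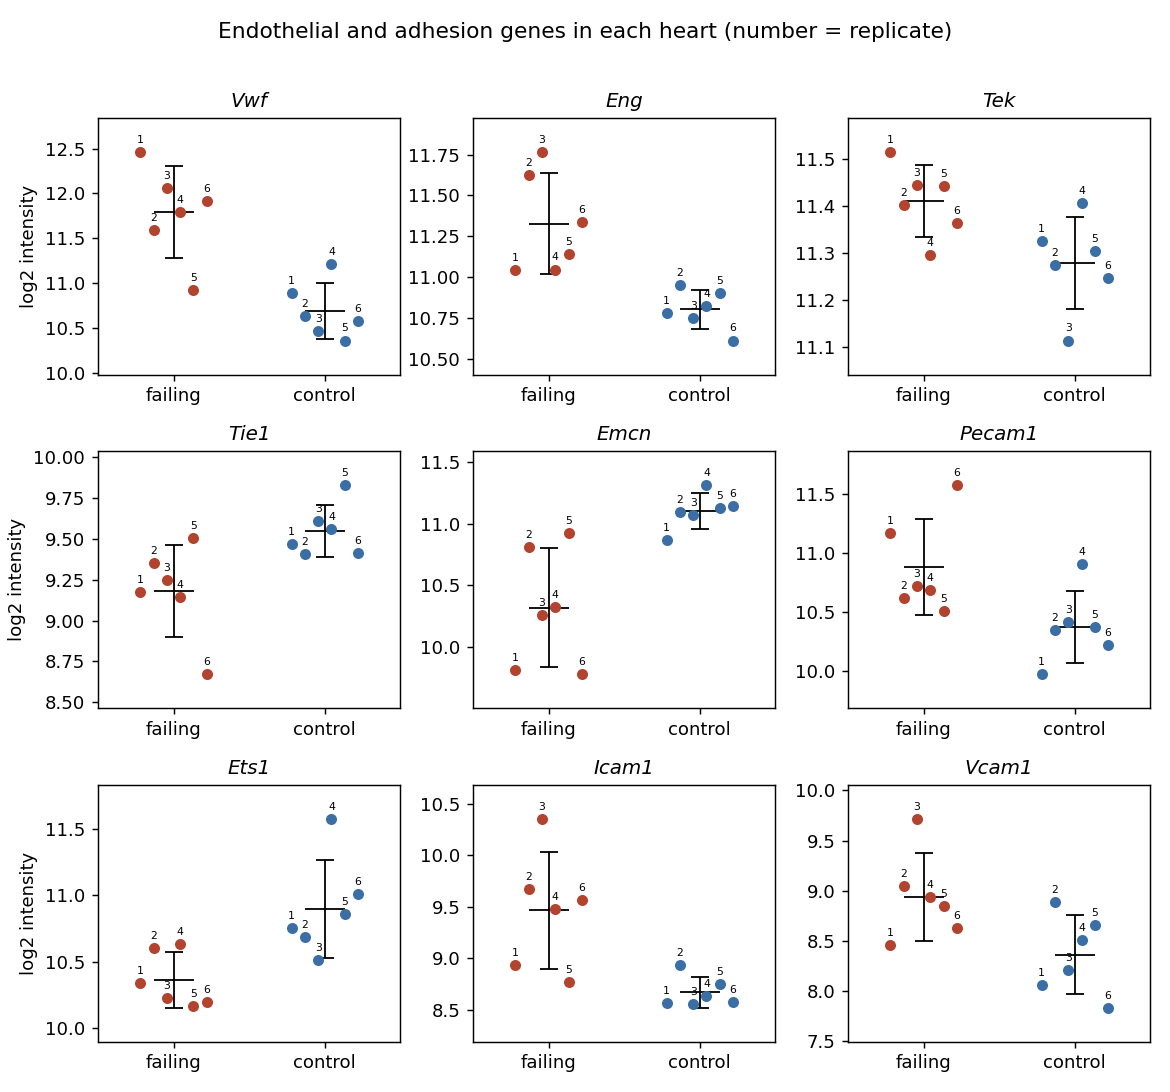
Log2 intensity (vertical axis) of the 9 measured genes in each failing and control heart, with the replicate number above each point; bars give the mean and SD of 6 hearts. Eng is the 1 gene whose groups do not overlap, and failing replicate 5 lies among the control hearts for Vwf, Emcn and Icam1.

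The arrays stood on a common scale, with a trimmed mean intensity between 500.19 and 500.23 and Spearman correlations between arrays from 0.915 to 0.945. Brighter probe sets had a median residual SD of 0.280 (log2) and dimmer ones of 1.08, and all 9 members lay among the brighter ones. The tissue label fitted the cardiomyocyte markers, of which 7 of 8 had a probe set. Their means ran from 14.04 (Ryr2) to 15.67 (Tnnt2) in failing hearts and from 14.21 to 15.72 in control hearts (log2). Of the endothelial genes 10 of 11 had a probe set, each among the brighter ones. So were all measured fibroblast, smooth muscle and macrophage markers, and being brighter does not by itself mark a tissue. One heart stood apart. Control replicate 4 had Nkg7 at 12.16, Klrd1 at 12.18 and Ptprc at 11.69, against 3.43 to 7.01, 2.38 to 6.58 and 6.73 to 9.0 in the other 11 hearts (log2). Nkg7 and Klrd1 are genes of natural killer and cytotoxic T cells and Ptprc encodes the leukocyte antigen CD45; these 3 were named after their values were seen.

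Of the larger-vessel genes, Vwf ran from 10.93 through a median of 11.86 to 12.47 in failing hearts, against 10.36, 10.61 and 11.22 in control hearts (log2 intensity, here and below). In all, 5 of 6 failing hearts exceeded every control heart, and failing replicate 5 was the exception. Vwf rose by 1.10 ± 0.22 (log2 difference ± SE, n = 6 per group; 95% interval of the fold from 1.54 to 2.99; limma adjusted p = 0.0276; exact permutation p = 0.00433, two-sided). Without failing replicate 5 the difference was 1.27 (limma adjusted p = 0.00404), and without control replicate 4 it was 1.21 (adjusted p = 0.0120). The call ended when any 1 of 8 other hearts was left out (failing replicates 3, 4 and 6 and control replicates 1, 2, 3, 5 and 6; limma adjusted p from 0.0510 to 0.0696), with differences from 1.03 to 1.14.

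Eng encodes endoglin, a co-receptor through which endothelial cells receive BMP9, BMP10 and TGF-beta, and which macrophages and activated stromal cells carry as well. It ran from 11.04 through 11.24 to 11.77 in failing hearts, against 10.61, 10.80 and 10.95 in control hearts. All 6 failing hearts exceeded all 6 control hearts, a separation that 2.62% of the brighter probe sets showed in either direction, 1.78% higher and 0.844% lower. The difference was 0.52 ± 0.14, a fold of 1.44 (95% interval from 1.17 to 1.77), with an exact permutation p of 0.00216, the smallest that arrangements of 6 and 6 hearts can give. In the limma fit among the brighter probe sets it just missed the threshold (adjusted p = 0.0501), and it passed when each gene was represented by 1 probe set and the 7109 brighter genes were tested (limma adjusted p = 0.0294, where 10.1% of genes passed, 5.4% higher and 4.73% lower). It also passed without control replicate 4 (0.53, limma adjusted p = 0.0362), failing replicate 1 (0.58, adjusted p = 0.0470) or failing replicate 5 (0.56, adjusted p = 0.0355).

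Emcn, the endomucin gene, ran from 9.78 through 10.29 to 10.93 in failing hearts, against 10.86, 11.11 and 11.31 in control hearts. In all, 5 of 6 failing hearts lay below every control heart; failing replicates 1 and 6 were lowest, and replicate 5 exceeded control replicate 1. Emcn fell by 0.78 on the log2 scale (SE 0.19, n = 6 per group), to 0.582 of the control level with a 95% interval from 0.438 to 0.773 (limma adjusted p = 0.0419; exact permutation p = 0.00433). Its difference was -0.90 without failing replicate 5 (limma adjusted p = 0.0119) and -0.74 without control replicate 4 (adjusted p = 0.0334). Leaving out any 1 of 9 hearts (all but failing replicates 2 and 5 and control replicate 4) ended the call, with limma adjusted p from 0.0635 to 0.0941 and differences from -0.83 to -0.67. The call also ended with the replicate number as a block (limma adjusted p = 0.0545).

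Pecam1 encodes CD31, which holds endothelial cells together and is also carried by platelets and leukocytes. It ran from 10.51 through 10.71 to 11.58 in failing hearts, against 9.98, 10.36 and 10.91 in control hearts, and only failing replicates 1 and 6 exceeded every control heart. The difference of 0.51 ± 0.19 did not pass (limma adjusted p = 0.128; exact permutation p = 0.0325), and it was 0.62 and passed without control replicate 4, the highest control heart (limma adjusted p = 0.0452). Pecam1 and Emcn thus lay on opposite sides of the control mean in all 6 failing hearts, and the same 2 hearts were the farthest from it for both.

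**Figure D2:**
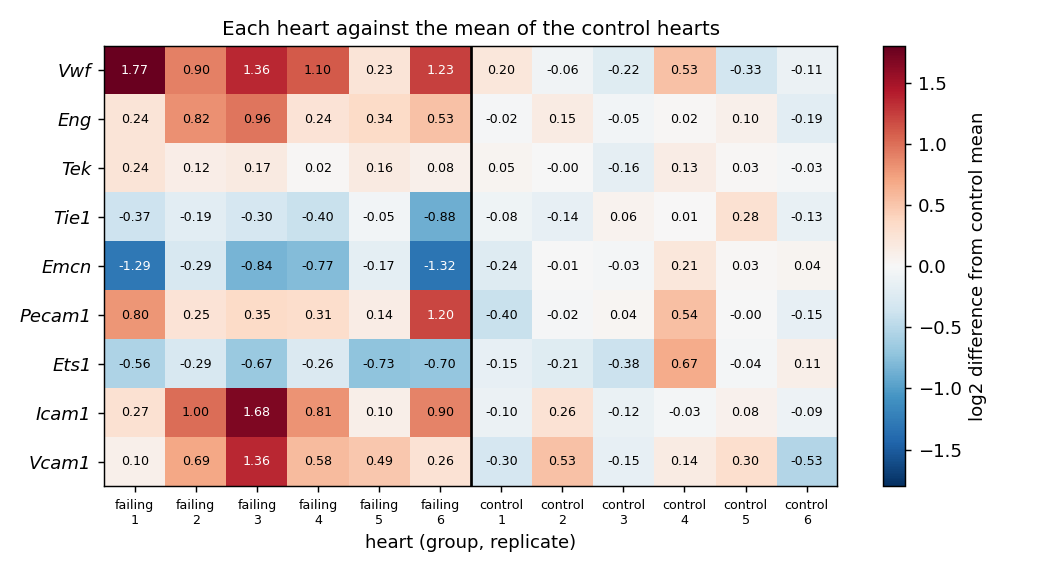
Difference of each heart from the mean of the 6 control hearts (log2; red higher, blue lower), for failing hearts on the left and control hearts on the right. Vwf, Eng, Tek, Pecam1, Icam1 and Vcam1 are above the control mean and Tie1, Emcn and Ets1 below it in 6 of 6 failing hearts, and the size differs widely between hearts.

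The paired receptor kinases of the angiopoietins differed in sign. Tek encodes TIE2, the receptor that keeps vessels quiescent when bound by angiopoietin 1, and Tie1 encodes its partner, which binds no angiopoietin strongly by itself. Tek ran from 11.30 through 11.42 to 11.51 in failing hearts, against 11.11, 11.29 and 11.41 in control hearts. These ranges overlapped in 3 failing hearts, and Tek had the smallest difference of the members, 0.13 ± 0.089 (95% interval of the log2 difference from -0.058 to 0.32; limma adjusted p = 0.370; exact permutation p = 0.0238). Tie1 ran from 8.67 through 9.21 to 9.50 in failing hearts, against 9.41, 9.52 and 9.83 in control hearts, and 5 of 6 failing hearts lay below every control heart. Its difference of -0.36 ± 0.14 did not pass (limma adjusted p = 0.123; exact permutation p = 0.0108).

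Among the ligands, named here for their role after values were seen, Angpt2, the context-dependent antagonist of TIE2, averaged 8.74 ± 0.88 in the failing group and 8.24 ± 0.28 in the control group (SD, n = 6; limma adjusted p = 0.362). Angpt1, the agonist, lay among the dimmer probe sets, averaging 5.80 ± 0.55 in the failing group and 5.41 ± 1.04 in the control group. Of the 7 brighter genes in the angiopoietin and TIE list, 0 passed, with 2 higher and 0 lower at an unadjusted p under 0.05. Ptprb, the endothelial phosphatase VE-PTP that dephosphorylates TIE2, had the smallest p (0.49 ± 0.14, limma adjusted p = 0.0583), and its second probe set gave 0.81 ± 0.28.

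Ets1 encodes a transcription factor of the ETS family that is active in endothelial cells and is also abundant in lymphocytes. It ran from 10.17 through 10.29 to 10.64 in failing hearts, against 10.52, 10.81 and 11.57 in control hearts, and 4 of 6 failing hearts lay below every control heart. The highest value was that of control replicate 4, the heart with the high Nkg7, Klrd1 and Ptprc. The difference was -0.54 ± 0.17 with that heart (limma adjusted p = 0.0744; exact permutation p = 0.00866) and -0.40 ± 0.13 without it (limma adjusted p = 0.0541). Over 1 probe set per gene Ets1 passed (limma adjusted p = 0.0486). The 11 brighter genes of the other ETS factors had 0 calls, and Etv1 had the smallest p (0.88 ± 0.24, limma adjusted p = 0.0552); of its 4 other probe sets, 1 passed (0.87 ± 0.17, adjusted p = 0.0276).

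The adhesion genes were higher in failing hearts without passing. Icam1 encodes the ligand of the leukocyte integrins LFA-1 and Mac-1. It ran from 8.77 through 9.53 to 10.35 in failing hearts, against 8.55, 8.61 and 8.93 in control hearts. In all, 5 of 6 failing hearts exceeded every control heart, with replicate 3 highest and replicate 5 within the control range. The difference was 0.80 ± 0.22, a fold of 1.74, with a 95% interval of the log2 difference from 0.33 to 1.26 (limma adjusted p = 0.0544; exact permutation p = 0.00433). It passed over 1 probe set per gene (limma adjusted p = 0.0340) and without failing replicate 1 or 5 or control replicate 4 (adjusted p = 0.0463, 0.0167 and 0.0451).

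Vcam1 encodes the ligand of the leukocyte integrin VLA-4 and is carried by activated endothelium, pericytes and fibroblasts. It ran from 8.46 through 8.89 to 9.72 in failing hearts, against 7.84, 8.36 and 8.89 in control hearts. The ranges overlapped, and 3 of 6 failing hearts exceeded every control heart, replicate 3 again being highest. The difference of 0.58 ± 0.22 did not pass (limma adjusted p = 0.125; exact permutation p = 0.0411).

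**Figure D3:**
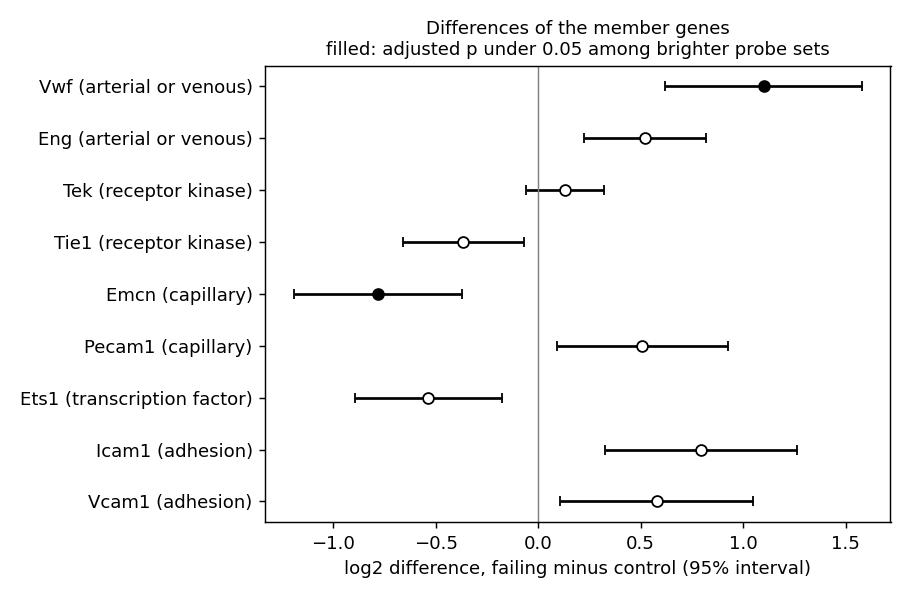
Log2 difference of failing minus control hearts with its 95% interval from limma (horizontal axis) for the 9 genes, labelled by role; filled points passed an adjusted p of 0.05 among the brighter probe sets. Vwf at 1.10 and Emcn at -0.78 are the filled points, and the interval of Tek alone includes 0.

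The start regions of both adhesion genes are shown because motifs of the cytokine-driven factor NF-kappaB lie there. The RefSeq table of assembly GRCr8 held the promoters of 5 members (Icam1, Vcam1, Emcn, Eng and Tie1), each of 250 bases before and 50 after the annotated start. Searched on both strands were GGAA and CCGGAA (ETS type), AGATAA (as bound by GATA factors), TATAAA and the NF-kappaB consensus by name, and, added after the sequences were seen, GGAAATTCC and GGGTTTCCC, NF-kappaB sites known from the human ICAM1 and VCAM1 promoters. Each of these other than GGAA is in capitals, and adjoining matches run together.
Icam1, GRCr8 chr8:27829595-27829894, plus strand: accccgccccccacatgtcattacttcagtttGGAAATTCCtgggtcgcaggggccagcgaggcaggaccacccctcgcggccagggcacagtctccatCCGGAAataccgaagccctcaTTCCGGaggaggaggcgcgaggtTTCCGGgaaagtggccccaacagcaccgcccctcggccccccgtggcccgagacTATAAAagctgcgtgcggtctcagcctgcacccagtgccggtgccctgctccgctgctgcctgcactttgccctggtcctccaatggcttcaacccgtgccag
Vcam1, GRCr8 chr2:206742734-206743033, minus strand: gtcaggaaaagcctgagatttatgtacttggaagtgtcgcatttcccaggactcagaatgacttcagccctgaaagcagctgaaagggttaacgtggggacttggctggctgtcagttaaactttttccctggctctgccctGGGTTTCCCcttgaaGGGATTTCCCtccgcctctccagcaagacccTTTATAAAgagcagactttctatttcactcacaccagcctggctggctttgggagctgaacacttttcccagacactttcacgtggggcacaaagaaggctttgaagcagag

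Counted from the start, the first base of GGAAATTCC in Icam1 is at -218, those of the 3 CCGGAA matches at -151, -130 and -107, and that of TATAAA at -53. In Vcam1, the NF-kappaB consensus begins at -93 and matches both strands there, GGGTTTCCC begins at -108, and overlapping TATAAA matches on opposite strands begin at -62 and -60. The NF-kappaB consensus was found in 1 of the 5 member promoters (Vcam1) and in 4.18% of all 33469 promoters of this length, CCGGAA in 1 (Icam1) and 15.0%, TATAAA in 2 (Icam1 and Vcam1) and 14.2%, AGATAA in 0 and 11.6%. GGAAATTCC was in 0.332% and GGGTTTCCC in 0.451% of all promoters, and GGAA was in all 5 member promoters and in 95.8% of all. These matches describe letters and are not measured sites.

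Hearts with a high value for 1 adhesion gene tended to be high for the other and for Eng. With group means removed, Eng and Icam1 correlated over the 12 hearts with Pearson r = 0.83 (permutation p = 0.00080, adjusted p = 0.0288 over 36 member pairs) and Spearman rho = 0.80 (permutation p = 0.0030, adjusted p = 0.0803). Without the 2 hearts farthest from the median of Eng, r was 0.66. The permutations moved values freely between the groups, whose spreads were unequal, so their p values hold only roughly. The SD of Eng was 0.31 in failing and 0.12 in control hearts, and that of Icam1 0.57 and 0.15. Eng with Vcam1 (r = 0.77, rho = 0.77, r = 0.67 without 2 hearts, permutation adjusted p = 0.0535 for r) and Icam1 with Vcam1 (r = 0.73, rho = 0.66, r = 0.71 without 2 hearts, permutation adjusted p = 0.0775 for r) did not pass. Vwf and Emcn ran opposite ways within groups (r = -0.65, rho = -0.57, permutation adjusted p = 0.158 for r), a relation that did not pass and was -0.19 without the 2 hearts farthest from the median of Vwf.

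The failing hearts were uneven. Failing replicate 5 was the nearest of the 6 to the control mean in 5 of 9 members, among them Vwf, Emcn and Icam1. Failing replicate 3 was the farthest for Eng, Icam1 and Vcam1, and failing replicate 6 for Tie1, Emcn and Pecam1. The heart highest for both adhesion genes, failing replicate 3, was thus not the heart lowest for Emcn, failing replicate 6. Failing replicate 5 had the lowest Icam1 and the highest Emcn of the failing hearts. All this was seen only as an order of 6 hearts.

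The mean of the standardised values of Pecam1, Tie1 and Tek, with group means removed, was most like Zmym5 (Pearson r = 0.89 over 12 hearts), Enpep (0.88), Nktr (0.87), Sub1 (0.86) and Rwdd3 (0.86) among 12522 brighter probe sets with 1 symbol. Enpep encodes aminopeptidase A, a membrane enzyme of the renin-angiotensin system. These values were picked as the highest and are a description. The 3 averaged genes shared no common course within groups (r = -0.55 for Tie1 with Pecam1, 0.20 for Tek with Tie1 and 0.17 for Tek with Pecam1), so the likeness is to their average and not to a pattern each of them shows.

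Other endothelial genes, from lists of which the members were left out, showed where the members stood. Of 39 brighter genes common to endothelium, 2 rose and 1 fell (2.83% and 1.63% of all 9409 brighter genes did so), with 10 higher and 5 lower at an unadjusted p under 0.05 and a median of 0.098. Procr, the endothelial protein C receptor, rose by 0.76 ± 0.19 (limma adjusted p = 0.0433) and Clec14a, an endothelial lectin, by 0.69 ± 0.18 (adjusted p = 0.0456). Podxl, podocalyxin of the endothelial surface coat, fell by 0.54 (SE 0.14, limma adjusted p = 0.0484), while its 2 other probe sets gave 0.23 ± 0.55 and 0.044 ± 0.38.

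The capillary and venous lists had medians of opposite sign. Of 13 brighter capillary genes 9 lay below 0, 1 fell and 0 rose, with a median of -0.22. Of all 9409 brighter genes 4992 lay below 0 and 4417 above. Car4, the carbonic anhydrase anchored on capillary endothelium, fell by 1.03 (SE 0.22, limma adjusted p = 0.0301), to 7.81 ± 0.28 in failing hearts, against 8.84 ± 0.52 in control hearts (SD, n = 6). Of 8 brighter venous genes 6 lay above 0 with a median of 0.35, and 0 passed; Il1r1, the interleukin 1 receptor, had the smallest p (0.72 ± 0.19, limma adjusted p = 0.0515; its 2 dimmer probe sets gave 2.15 ± 0.40 and 1.14 ± 0.45). Of 16 arterial genes 0 passed, with a median of 0.098, and the Notch target Hey2 had the smallest p (-0.50 ± 0.14, limma adjusted p = 0.0539). In the venous list 4 genes were higher and 1 lower at an unadjusted p under 0.05, in the arterial list 3 and 2, and in the capillary list 1 and 5. The 1 higher capillary gene was Aqp1 (0.47 ± 0.21, limma adjusted p = 0.184). The difference between the lists was not tested. Medians of the brighter fibroblast, macrophage and smooth muscle markers were 0.46, 0.62 and 0.40, and that of the cardiomyocyte markers was -0.16. The part of these cells in the values of the lists was not tested. Of 9 brighter endocardial and lymphatic genes, 1 rose, Reln (1.02 ± 0.26, limma adjusted p = 0.0439), which lymphatic endothelium secretes; its dimmer probe set did not pass (1.19 ± 0.66).

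**Figure D4:**
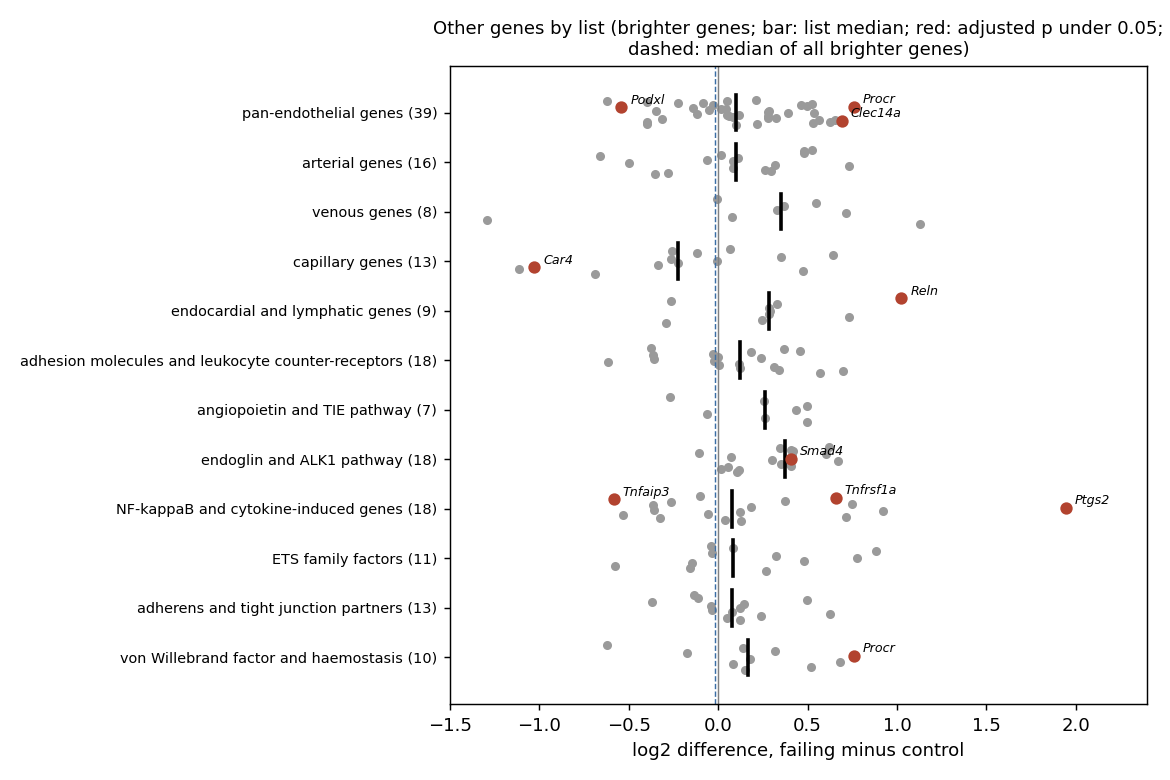
Log2 difference of failing minus control hearts (horizontal axis) for each brighter gene of 12 lists, members left out, with the number of genes in brackets; black bars are list medians, red points passed an adjusted p of 0.05, and the dashed line is the median of all brighter genes. The capillary median is -0.22 and the venous median 0.35.

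Around endoglin, 17 of 18 brighter genes of the endoglin and ALK1 pathway lay above 0, with a median of 0.37 and 8 higher and 0 lower at an unadjusted p under 0.05. Of all 9409 brighter genes 46.9% lay above 0, and 13.2% of the brighter probe sets were higher at that p. Of the brighter fibroblast, macrophage and smooth muscle markers, 8 of 8, 9 of 11 and 8 of 10 lay above 0, and the part of these cells in the pathway's values was not tested. Smad4, the common mediator of TGF-beta and BMP signals, rose by 0.41 ± 0.11 (limma adjusted p = 0.0484) and was the 1 gene to pass, while its second probe set did not (0.36 ± 0.16, adjusted p = 0.187). The receptor genes that act with endoglin, named for their role after values were seen, did not pass, Acvrl1 (ALK1) differing by 0.11 ± 0.16 and Bmpr2 by 0.018 ± 0.12 (limma adjusted p = 0.683 and 0.949).

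Of 18 brighter genes of NF-kappaB and its cytokine inputs, 2 rose and 1 fell, with a median of 0.080. Ptgs2, the inducible cyclooxygenase 2, rose by 1.94 ± 0.44 and Tnfrsf1a, a receptor of tumour necrosis factor, by 0.66 ± 0.16 (limma adjusted p = 0.0350 and 0.0393). Tnfaip3, which encodes the NF-kappaB inhibitor A20, fell by 0.58 (SE 0.14, limma adjusted p = 0.0426). Of 18 brighter adhesion molecules and leukocyte counter-receptors 0 passed and 4 were higher at an unadjusted p under 0.05; Alcam, an adhesion molecule that binds CD6, had the smallest p (0.57 ± 0.15, limma adjusted p = 0.0532). A second probe set of Itgb1, which encodes the beta chain of VLA-4, passed (0.52 ± 0.13, limma adjusted p = 0.0472), while its brightest, used for the count, did not (0.24 ± 0.11, adjusted p = 0.203). Itgal and Itgb2, which form LFA-1, the integrin that binds ICAM-1, were at 7.31 ± 0.19 and 8.98 ± 0.64 in failing hearts, against 7.93 ± 1.25 and 8.98 ± 0.94 in control hearts, whose highest values were 10.26 and 10.80. Sele, E-selectin of cytokine-activated endothelium, averaged 7.70 ± 0.35 in the failing group and 7.33 ± 0.43 in the control group (SD, n = 6; limma adjusted p = 0.291); these 3 were named for their role after values were seen.

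The junction partners of VE-cadherin and PECAM-1 had 0 calls in 13 brighter genes, with Ptprb again at the smallest p. Of 10 brighter haemostasis genes around von Willebrand factor 1 rose, Procr. Each of the 13 genes outside the members that are given here or with the markers below as having risen or fallen was called in only 2 to 5 of the 12 fits that left out 1 heart. All 13 were called without control replicate 4 and all 13 without failing replicate 5, against 0 without control replicate 1, 2, 5 or 6 or failing replicate 3 or 4, 1 without failing replicate 6, 2 without control replicate 3, 3 without failing replicate 2 and 7 without failing replicate 1. Without control replicate 4, 10 rose and 1 fell in the list common to endothelium, 1 and 2 in the arterial list, 0 and 3 in the capillary list, 2 and 1 in the venous list, 3 and 0 in the adhesion list, 4 and 1 in the ETS list, 2 and 0 in both the angiopoietin and endoglin lists, 3 and 3 in the NF-kappaB list and 5 and 0 among the macrophage markers. That fit called 1035 of all 15521 brighter probe sets higher and 1048 lower. Without failing replicate 5 the counts of the same lists, in that order, were 6 and 2, 0 and 2 (arterial), 0 and 2 (capillary), 3 and 1, 2 and 0, 1 and 1, 2 and 0 (angiopoietin), 3 and 0 (endoglin), 3 and 1, and 6 and 0. There 804 of the 15521 were called higher and 659 lower. In each of these lists at least 1 other leave-out gave 0 and 0.

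Markers of other cells that carry the members were measured beside them. The 8 fibroblast genes all lay above 0 (2 rose, Pdgfrl by 1.08 ± 0.23 and Dcn by 0.50 ± 0.11, limma adjusted p = 0.0290 and 0.0292), and their summed intensity ran from 49797 to 103295 in failing hearts, against 41600 to 71581 in control hearts. Of 11 macrophage and myeloid genes 9 lay above 0 and 2 rose, the scavenger receptor gene Mrc1 (1.03 ± 0.24) and the complement gene C1qb (1.09 ± 0.28; limma adjusted p = 0.0392 and 0.0461), with sums from 7570 to 19754 in failing hearts and from 5722 to 18351 in control hearts. The highest control sum was that of control replicate 4. This list includes Ptprc, the gene of the leukocyte antigen CD45, at 11.69 in that heart and at most 9.0 in every other heart. The sums of the other 5 control hearts reached 8780, and 5 of 6 failing hearts exceeded these. Of 10 smooth muscle and pericyte genes 8 lay above 0 and 0 passed, Tagln having the smallest p (0.99 ± 0.28, limma adjusted p = 0.0565), with sums from 11052 to 16394 in failing hearts and from 11346 to 14974 in control hearts. These cells can carry Eng, Icam1 and Vcam1. Failing replicate 3, the highest heart for each of these genes, also held the highest fibroblast, macrophage and smooth muscle sums of all hearts. The part of these cells in the differences and correlations of these genes was not tested.

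The 5 measured platelet genes of 7 summed to between 1309 and 2484 in failing hearts, against 1253 to 2975 in control hearts, and Itga2b, the platelet integrin gene, had the smallest p and was lower (-0.67 ± 0.24, limma adjusted p = 0.110). Platelets carry Vwf and Pecam1. Lymphocyte genes (8 of 9 measured, 1 of them brighter, Cd4, at 0.49 ± 0.18, limma adjusted p = 0.116) summed to between 320 and 826 in failing hearts, against 510 to 9611 in control hearts, where control replicate 4 held the highest sum and the other 5 control hearts reached 623. Of the 8 measured lymphocyte genes 3 lay above 0 and 5 below, among them the dim Cd8a, a marker of cytotoxic T cells (-2.07 ± 0.67), Klrd1 (-2.13 ± 1.10) and Nkg7 (-1.45 ± 1.11; limma adjusted p over all probe sets = 0.202, 0.400 and 0.583). Control replicate 4 had Klrd1 at 12.18 and Nkg7 at 12.16, against at most 6.58 and 7.01 in every other heart, and so widened both differences. For Cd8a the brightest of 3 probe sets is given. Lymphocytes carry Ets1, and their part in its difference was not tested. Red cell genes (5 of 7 measured) summed to between 15381 and 44703 in failing hearts and between 17723 and 44522 in control hearts, with Hbb at 0.069 ± 0.26. Cardiomyocyte genes summed to between 186147 and 295777 in failing hearts and between 181679 and 302408 in control hearts, 6 of 7 lying below 0 and Myh6, alpha-myosin heavy chain, having the smallest p (-1.03 ± 0.32, limma adjusted p = 0.0774). The 10 endothelial markers, 6 of them members, summed to between 17480 and 22219 in failing hearts and between 15796 and 19342 in control hearts, so the ranges overlapped. Control replicate 4 again held the highest control sum, and the other 5 control hearts reached 17496. Every failing heart but replicate 5, at 17480, exceeded these. None of these lists had a marker at an intensity of 0.

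**Figure D5:**
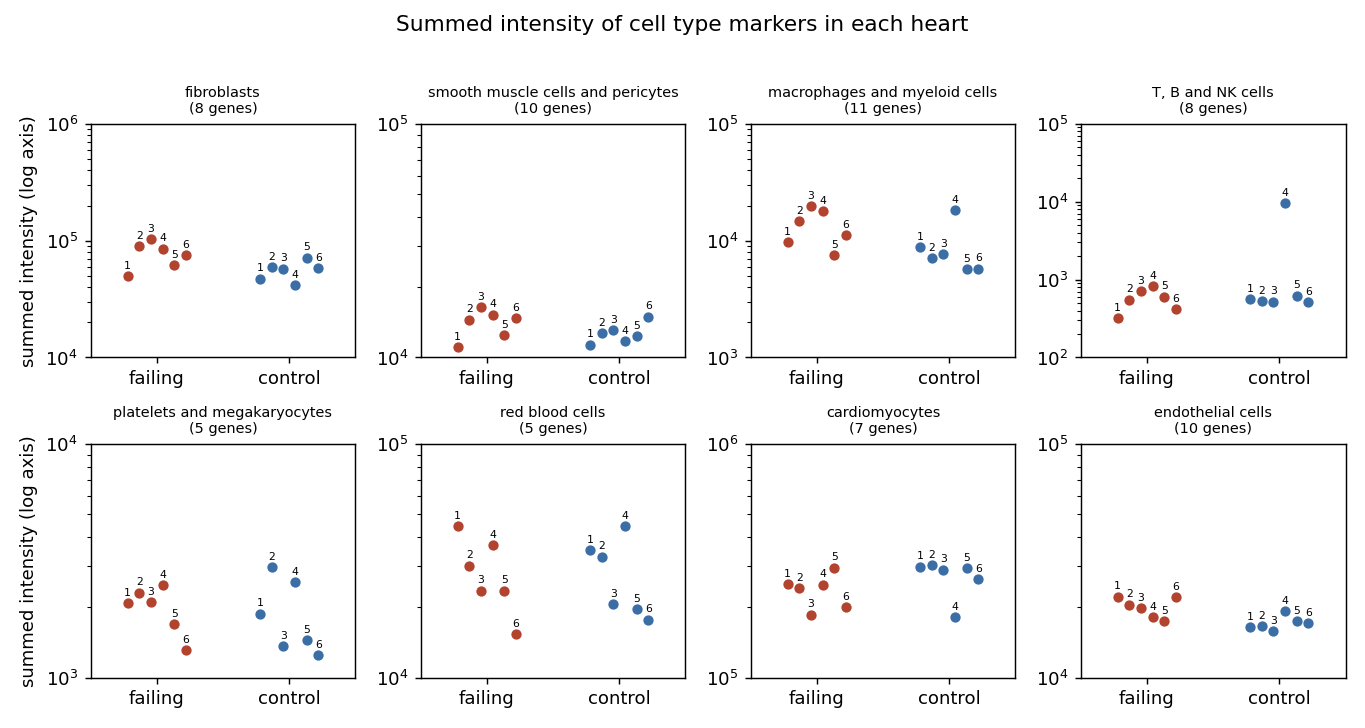
Summed intensity (log axis) of the measured markers of 8 cell types in each failing and control heart, with the replicate number above each point. Control replicate 4 reaches 9611 for T, B and NK cells, against at most 826 in failing hearts. The endothelial sums overlap between the groups, where control replicate 4 is the highest control heart and failing replicate 5 the lowest failing heart.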

How the data were processed

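Trizol and a column clean-up gave the RNA, which was hybridised as biotinylated cRNA, per the labels' protocols. The authors deposited 1 table of intensity values, linear from 0.1 to 79913.6, with 12 columns, each mapped to its heart by name. Per the submitters' processing notes the tool was RMA, with no version, but the deposited intensities are linear and share 1 trimmed mean, so how probes were summarised is unknown, and scaling of this kind hides any change common to most genes. No source used here gives a build or scan dates.

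Intensities were log2 transformed without an offset after 57 control probe sets were left out. Symbols came from the platform annotation (20826 probe sets with 1 symbol, 436 with several, 9780 listed with none); 14167 of 14217 genes matched RefSeq by identifier, and 0 symbols differed. The group difference was fitted by limma 3.58.1 under R 4.3.3 (eBayes, group as the only term, two-sided, Benjamini-Hochberg, threshold 0.05), on the brighter probe sets, with a fit to all probe sets beside it. Differences are failing minus control, SDs are between hearts, and SEs are moderated. Exact permutation tests ran over every arrangement of 6 and 6 hearts, and correlations used 100000 permutations. In 1 simulation on 15521 probe sets with independent noise, 32% of log2 changes of 0.5 were called, 80% of those of 1, 94% of those of 1.5 and 96% of those of 2, beside 12 unchanged probe sets.

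The members, the lists and the fit to the brighter probe sets were chosen with earlier results of these data known. The rule for other names took up to 2 called genes of each list in each direction, or the gene with the smallest p, and 5 genes most like the mean of Pecam1, Tie1 and Tek. For a gene with several probe sets the one with the highest mean was used. Alternatives were the filter, the variance model, array weights, normalization, an offset of 32, 1 probe set per gene, the replicate block, an RNA quality covariate, a rank-sum test, a stricter threshold and leaving out each heart. The number of arrays limits the precision. Python 3.11.15 and matplotlib 3.10.9 were used for tables and figures.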

Additional observations from a re-analysis of the deposited data

How the results depend on the processing

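No member difference changed sign under any alternative run. Among the brighter probe sets, the 429 called higher and 230 lower became 1203 and 1067 with array weights, 222 and 59 with the replicate block, and 0 and 0 with the rank-sum test, at an adjusted p of 0.01, and over all probe sets (4495 at an unadjusted limma p under 0.05). Those lower were 419 with an intensity trend and 136 after median centring, when 74.4% of calls were higher against 65.1%. Leaving out 1 heart gave 20 (without control replicate 6) to 1035 (without control replicate 4) higher, 4 to 1048 lower (the same hearts) and 0 to 160 over all probe sets, where array weights gave 231, an intensity trend 566 and the offset 46. Members called higher (1) were 4 with array weights, 3 with 1 probe set per gene, an intensity trend or the offset, 2 over all probe sets with a trend, 0 at 0.01, over all probe sets and by rank-sum, and 0 to 4 without 1 heart. Those lower (1) were 2 with 1 probe set per gene, 0 with the replicate block, rank-sum, 0.01 or all probe sets, and 0 to 1 without 1 heart. Calls rose across the array too. Of the brighter probe sets, 620 were called higher with an intensity trend, and 491 higher and 298 lower with the offset. Over all probe sets with a trend 380 were called higher and 186 lower. With 1 probe set per gene 384 of 7109 genes were called higher and 336 lower.

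The fit to all probe sets ended the calls of Vwf (1.10; adjusted p = 0.129) and Emcn (-0.78; 0.160). The rank-sum test ended both calls too (adjusted p = 0.0893 for both). Its lowest adjusted p was 0.0825, so it called no probe set. Its smallest p, 0.00216, belongs to probe sets with groups apart, and 407 of the 15521 brighter ones had that. In addition, the replicate block ended the call of Emcn (-0.78). The labels do not say that a number marks a shared animal or batch; same-numbered hearts correlated from -0.060 to 0.23 and 3 of 12 correlated best with their own number. Eng passed with 1 probe set per gene, a trend in both fits (0.52), array weights (0.56) and the offset (0.51). Icam1 passed with 1 probe set per gene, a trend among the brighter probe sets (0.80), array weights (0.87) and the offset (0.75), Ets1 with 1 probe set per gene (-0.54) and Vcam1 with array weights (0.69). Without 1 heart the differences ran from 0.97 to 1.27 for Vwf, 0.43 to 0.58 for Eng, -0.90 to -0.67 for Emcn, 0.37 to 0.62 for Pecam1 and 0.62 to 0.93 for Icam1. The causes were not tested. Of 216 refits of members, 176 kept their side of the threshold, 18 gained a call and 22 lost one. All 22 were of Vwf or Emcn, the members called in the main fit. Vwf kept its call in 4 of 12 leave-outs and 10 of 12 other settings, and Emcn in 3 and 9. Depth as signal over background was not given, and the members lay among the brighter probe sets.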
